A study of Bos taurus with 6 samples.

Results

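SPARC, a collagen-binding glycoprotein of the matrix, was described in cattle muscle together with 7 related genes: SPARCL1, the thrombospondins THBS1, THBS2 and THBS4, the tenascin TNC, periostin (POSTN) and fibronectin (FN1). These are 8 of the 21972 genes in the deposited expression table. They were taken by gene name, and a further row named TMEM200A that also carries the symbol THBS2 was left out. The set was chosen by the FPKM of SPARC, which stood out when the breeds were compared in these same libraries, so the breed differences of the members below are a description, and no p-value is given for any of them. The groups were Japanese black (Wagyu) cattle (n = 3; WC616, WC719 and WC921) and Chinese Red Steppes cattle (n = 3; RC4, RC5 and RC6). All were males aged 28 months on a corn and hay diet, and 1 poly(A) RNA library was made from the longissimus dorsi, the long back muscle, of each animal. Each breed was supplied by its own institution and descended from its own bull, so breed, bull and place of origin cannot be told apart.

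Matricellular proteins are secreted into the matrix around cells, where they tune how cells attach to collagen and respond to growth factors rather than bearing load themselves. SPARC binds fibrillar and basement membrane collagens and takes part in collagen processing, and SPARCL1 (hevin) is its closest relative, known from blood vessels and brain. Thrombospondin-1 and thrombospondin-2 form trimers that bind CD36 and CD47 and restrain vessel growth, whereas thrombospondin-4 belongs to the pentamer-forming subgroup found in muscle and tendon. Tenascin-C and periostin are best known from tendon, injury and scarring. Fibronectin is a structural matrix protein to which several of the others bind. In skeletal muscle much of this matrix is made by fibroblasts and vessel cells between the fibres, and in bulk tissue fewer cells of a type cannot be told apart from less RNA per cell.

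The values were FPKM, that is, fragments per kilobase of gene length and per total of reads counted to genes, and they rested on 15859797 to 16197141 counted reads in Wagyu and 15438095 to 16058261 in Chinese Red Steppes. The tissue label fitted its defining markers, with ACTA1, the skeletal muscle actin, at 31588 to 36258 FPKM in Wagyu and 41181 to 45751 FPKM in Chinese Red Steppes. Libraries RC6 and RC5 of Chinese Red Steppes stood apart. In RC6 the mitochondrial genes took 10.4% of reads, against 4.79% to 5.79% in the other 5 libraries, and the summed slow fibre markers reached 52059 FPKM, against 16505 to 30338 FPKM. In RC5 the haemoglobin gene HBB was at 39.6 FPKM, against 0 to 0.81 FPKM elsewhere.

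SPARC was the most abundant of the 8 genes in every library and was higher in each Wagyu animal than in any Chinese Red Steppes animal. SPARC levels were 268, 202 and 227 FPKM in animals WC616, WC719 and WC921, against 175, 93.6 and 124 FPKM in RC4, RC5 and RC6. The lowest Wagyu value exceeded the highest Chinese Red Steppes value, that of RC4, by a ratio of only 1.15, and the widest ratio between an animal of each breed was 2.86. The mean was 232 ± 33.3 FPKM in Wagyu and 131 ± 41.2 FPKM in Chinese Red Steppes (n = 3 each, SD), and their quotient was 1.77. On the scale of log2(FPKM + 1), used for all fold changes here except under some alternative settings, the difference was 0.86 (standard error 0.24). It ranged from 0.64 without RC5 to 1.09 without RC4, and was 0.84 without RC6. Counting error was small beside these differences, since 6999 to 9086 reads lay behind the Wagyu values and 3146 to 6014 behind the others. Over the 6 libraries SPARC had a mean of 182 FPKM, above 96.1% of the 9990 genes with a mean of at least 1 FPKM.

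SPARCL1 was much less abundant than its relative, with a mean of 23.4 FPKM over the 6 libraries, and the breeds overlapped. Its values were 22.9, 29.5 and 22.7 FPKM in WC616, WC719 and WC921, against 17.8, 21.3 and 26.3 FPKM in RC4, RC5 and RC6. It varied least of the members past the abundance filter, with a ratio of 1.66 between the highest and the lowest library, and the log2 fold change was 0.20 (standard error 0.18). The ratio of SPARC to SPARCL1 within a library was 11.7, 6.86 and 9.99 in WC616, WC719 and WC921, and 9.84, 4.40 and 4.73 in RC4, RC5 and RC6. On this ratio RC4 lay among the Wagyu animals, while RC5 and RC6 lay below all of them.

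THBS4, the muscle and tendon thrombospondin, was the member with the largest log2 fold change between the breeds among the 5 past the abundance filter. THBS4 levels were 49.9, 45.6 and 59.0 FPKM in animals WC616, WC719 and WC921, against 26.4, 14.8 and 26.9 FPKM in RC4, RC5 and RC6. Every Wagyu value was thus at least 1.70 times every Chinese Red Steppes value, and RC5 was the lowest library, as it was for SPARC. The means were 51.5 ± 6.84 FPKM in Wagyu and 22.7 ± 6.81 FPKM in Chinese Red Steppes (n = 3 each, SD), and their quotient was 2.27. The log2 fold change was 1.19 (standard error 0.24), and 0.92 to 1.33 with 1 library left out. The reads behind these values, 2546, 2377 and 3064 in Wagyu and 1361, 749 and 1333 in Chinese Red Steppes, equalled the raw counts deposited for THBS4.

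THBS1, the platelet and vessel thrombospondin that can activate latent TGF-beta, varied more within each breed than between the breed means. Low values were found in WC616 (2.33 FPKM), RC4 (1.32 FPKM) and RC5 (3.37 FPKM), and high values in WC719 (7.72 FPKM), WC921 (7.48 FPKM) and RC6 (7.59 FPKM). Each breed therefore held low and high animals, and the ratio of the highest to the lowest library was 3.31 within Wagyu and 5.73 within Chinese Red Steppes. The log2 fold change of 0.50 (standard error 0.53) came to 0.03 without RC4, 0.98 without RC6, 0.96 without WC616, 0.26 without WC719 and 0.28 without WC921. Of the platelet genes, PPBP and GP9 were at 0 in all 6 libraries and PF4 did not exceed 0.44 FPKM, whereas the integrin chain ITGA2B was present in every library, at 1.46 to 2.04 FPKM in Wagyu, 1.69 and 1.45 FPKM in RC4 and RC5 and 4.34 FPKM in RC6. The part of platelets in the THBS1 values was not tested. THBS2, which helps to order collagen fibrils in mice, was close to the detection limit, with 18, 16 and 38 reads in the Wagyu libraries and 20, 39 and 4 reads in RC4, RC5 and RC6. Its means were 0.43 ± 0.21 FPKM in Wagyu and 0.38 ± 0.32 FPKM in Chinese Red Steppes (SD, n = 3 each), and they differed by less than the spread between animals.

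**Figure D1:**
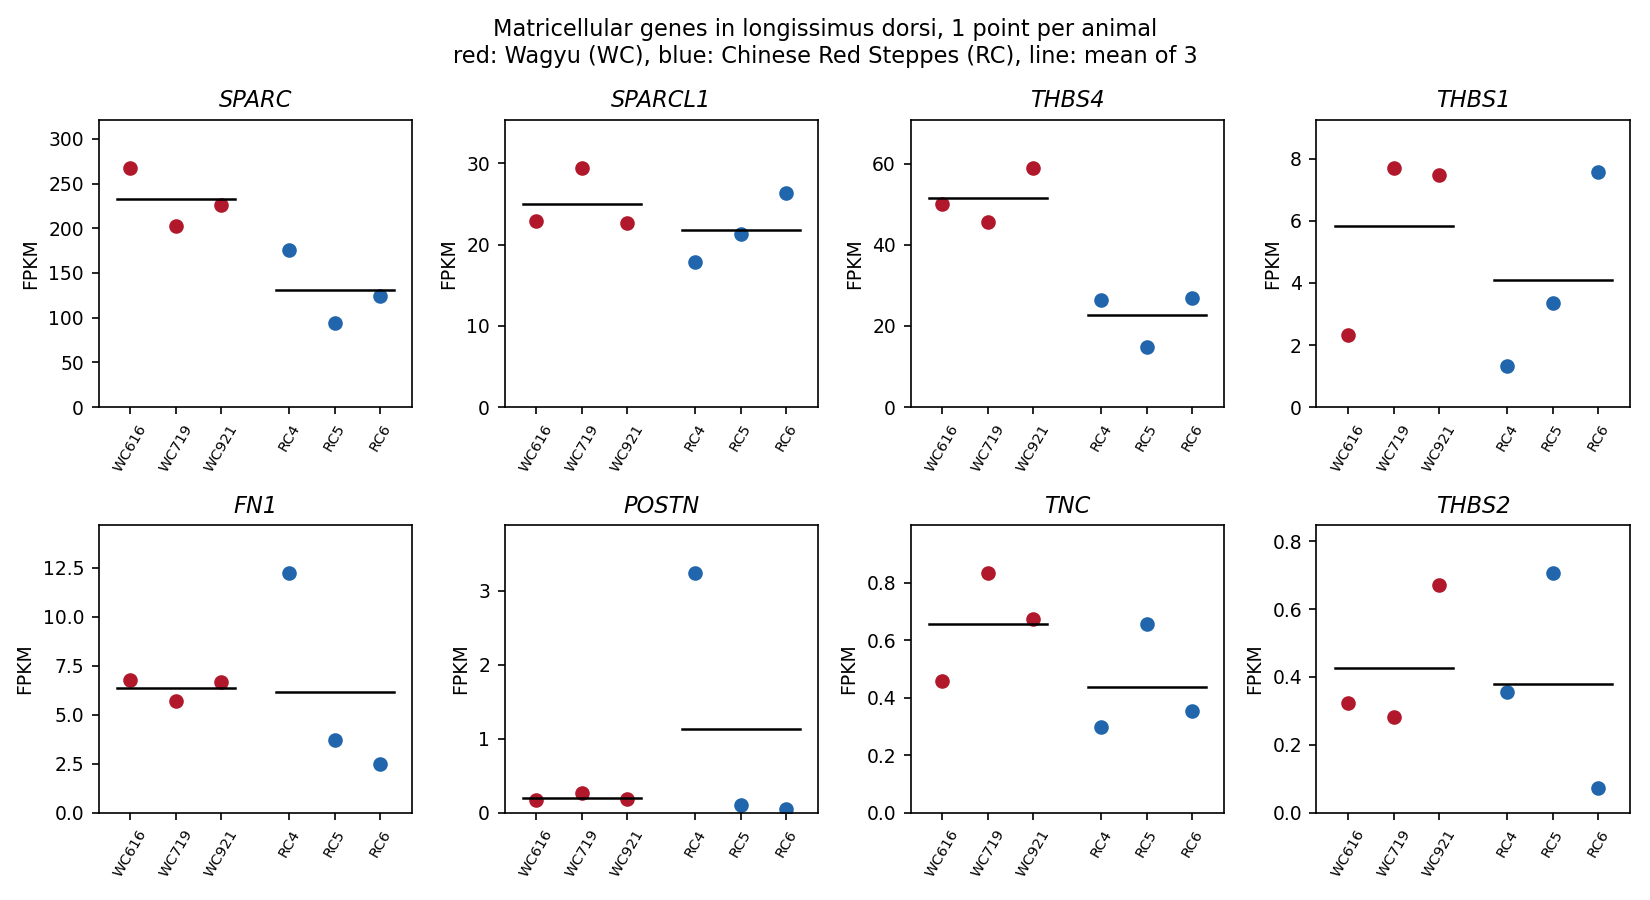
FPKM of the 8 genes (vertical axes, linear and starting at 0) in each of the 6 libraries (horizontal axes), with 3 Wagyu animals in red, 3 Chinese Red Steppes animals in blue and the mean of each breed as a line. SPARC and THBS4 separate the breeds, THBS1 is low in WC616, RC4 and RC5, and FN1 and POSTN are highest in RC4, at 12.2 and 3.24 FPKM.

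FN1 and POSTN were marked by a high value in RC4. FN1 was at 6.79 FPKM in WC616, 5.69 FPKM in WC719 and 6.66 FPKM in WC921, a narrow range, against 12.2, 3.71 and 2.47 FPKM in RC4, RC5 and RC6. The Wagyu animals thus lay between RC4 and the other Chinese Red Steppes animals. The breed means were close, at 6.38 ± 0.60 FPKM in Wagyu and 6.14 ± 5.32 FPKM in Chinese Red Steppes (SD, n = 3 each), and the log2 fold change of 0.30 (standard error 0.45) was 0.87 without RC4 and -0.10 without RC6.

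POSTN, a collagen-binding protein of injured and fibrotic tissue, had 160 reads in RC4 (95% Poisson interval 136 to 187, counting error only). It had 8, 13 and 9 reads in the Wagyu libraries and 5 and 2 reads in RC5 and RC6. The FPKM in RC4, 3.24, was 12.4 times that of the next library. The Chinese Red Steppes mean of 1.13 ± 1.83 FPKM (SD, n = 3) fell to 0.07 FPKM without RC4, below the Wagyu mean of 0.20 ± 0.05 FPKM (SD, n = 3), so the direction of the breed difference depended on this animal. TNC was low throughout, at 0.46 FPKM in WC616, 0.83 FPKM in WC719 and 0.67 FPKM in WC921, against 0.30, 0.66 and 0.35 FPKM in RC4, RC5 and RC6. The breeds overlapped through WC616 and RC5, and 36 to 102 reads lay behind each value.

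Of the 8 genes, 5 passed the filter of a mean of at least 1 FPKM (SPARC, SPARCL1, THBS1, THBS4 and FN1), while THBS2, TNC and POSTN did not. These 5 each exceeded 1 FPKM in all 6 libraries, so none passed through a high group alone. The ordering by mean abundance was SPARC, THBS4, SPARCL1, FN1, THBS1, POSTN, TNC and THBS2. THBS4 was above SPARCL1 in every library but RC5, where it was at 14.8 FPKM and SPARCL1 at 21.3 FPKM. In this ordering FN1 and THBS1 did not differ beyond their spread between animals, nor did POSTN, TNC and THBS2. SPARC made up 69.2% to 76.4% of the summed FPKM of the 8 genes in Wagyu and 66.1% to 74.0% in Chinese Red Steppes, and THBS4 14.2% to 18.2% and 10.7% to 14.3%. In limma, fitted across all 9990 genes past the filter, 0 of the 5 members were called at an adjusted p under 0.05, where 0.0200% of all genes were (0.0100% higher and 0.0100% lower in Wagyu). At an unadjusted p under 0.05 there were 2 of 5, both higher in Wagyu, against 8.64% of all genes higher and 5.87% lower. edgeR on reads recovered from the FPKM called 0 of 7, against 0.0685% of all genes (0.0514% higher and 0.0171% lower in Wagyu). DESeq2 on the same reads called 1 of 7, THBS4, against 1.94% of all genes (1.26% higher and 0.680% lower in Wagyu). In 2 of the 5 members the breeds did not overlap, with Wagyu higher in both, against 11.4% of all genes tested with Wagyu higher and 9.16% with Wagyu lower. All 5 had a log2 fold change above 0, against 53.7% of all genes tested. The median log2 fold change of the 5 members was 0.50, and that of all genes tested 0.03. These counts take in the gene by which the set was chosen.

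The spread between animals was not alike in the breeds. The SD of log2(FPKM + 1) of SPARC was 0.20 in Wagyu and 0.45 in Chinese Red Steppes, that of THBS4 0.18 and 0.46, and that of FN1 0.12 and 1.01. SPARCL1 had SDs of 0.21 and 0.27 and THBS1 of 0.79 and 0.94. Over all genes tested the median SD was 0.19 in Wagyu and 0.23 in Chinese Red Steppes. The difference in spread was not tested.

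The collagens that these proteins bind were examined next, from a list of 16 genes of collagen chains and their maturation. Of the 14 past the filter, 13 lay above 0 and 1 below, with a median log2 fold change of 0.62 (0.87 without RC4 and 0.48 without RC6). None passed limma or edgeR, 7 had an unadjusted p under 0.05, all higher in Wagyu (8.64% of all genes), and DESeq2 called 2 of 16 higher, COL4A1 and COL4A2 (1.26% of all genes). The breeds did not overlap in 5 of the 14, all higher in Wagyu (11.4% of all genes). COL4A1, a chain of the collagen of basement membranes, was at 127 FPKM in WC616, 94.7 FPKM in WC719 and 134 FPKM in WC921, against 58.3, 52.2 and 67.0 FPKM in RC4, RC5 and RC6. Its partner chain COL4A2 was at 104, 71.1 and 106 FPKM against 52.0, 36.6 and 47.6 FPKM in the same order of animals. In both chains every Wagyu animal lay above every Chinese Red Steppes animal. The log2 fold changes were 0.98 (standard error 0.17, limma adjusted p = 0.144; 0.0022 to 0.403 over the alternatives) for COL4A1 and 1.02 (standard error 0.21, limma adjusted p = 0.156; 0.0053 to 0.426 over the alternatives) for COL4A2.

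Next came the fibrillar chains that accompany collagen I. COL5A1, which sets the width of collagen I fibrils, was at 6.65 ± 1.22 FPKM in Wagyu and 3.52 ± 1.11 FPKM in Chinese Red Steppes (n = 3 each, SD; difference in log2 0.78, standard error 0.22, limma adjusted p = 0.232; 0.0767 to 0.557 over the alternatives). COL5A2 was at 5.52 ± 0.16 FPKM and 3.73 ± 0.26 FPKM (n = 3 each, SD; difference in log2 0.47, standard error 0.14, limma adjusted p = 0.256; 0.165 to 0.574 over the alternatives). COL1A1, named after its values were seen, is the main chain of fibrillar collagen and overlapped between the breeds, at 51.9 FPKM in WC616, 25.5 FPKM in WC719 and 41.9 FPKM in WC921, against 32.2, 39.5 and 10.4 FPKM in RC4, RC5 and RC6. In 9 of the 14 genes RC6 was the lowest library, against 23.7% of all genes tested.

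**Figure D2:**
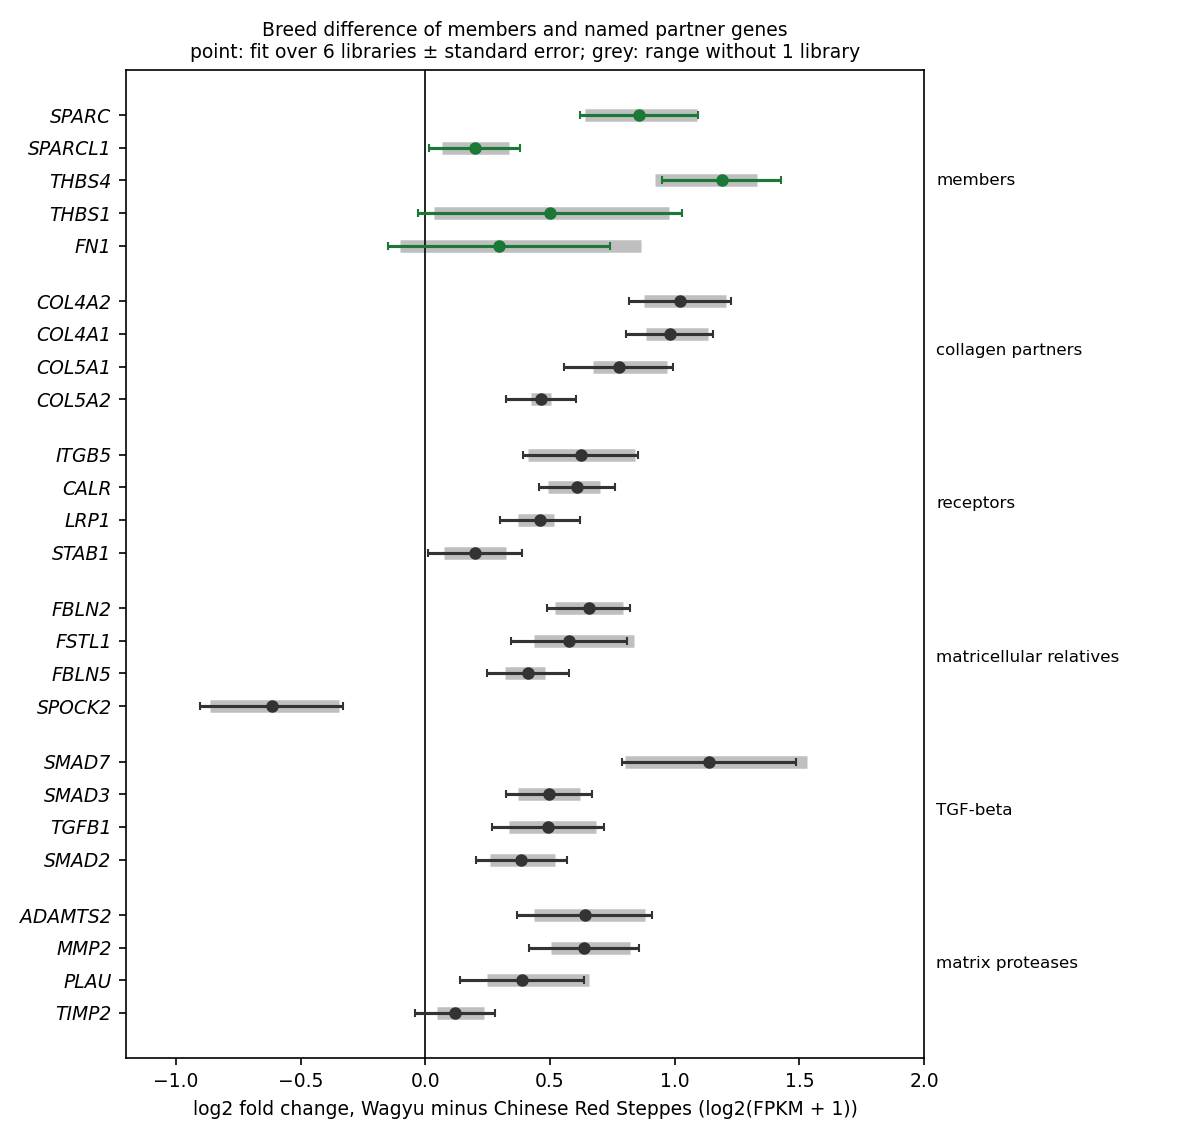
Log2 fold change, Wagyu minus Chinese Red Steppes, of log2(FPKM + 1) on the horizontal axis for the 5 members past the filter (green) and 20 named partner genes (dark) in 5 lists, with points for the fit over 6 libraries, bars for its standard error and grey bands for the range when 1 library is left out. THBS4 (1.19), SMAD7 (1.14), COL4A2 (1.02) and COL4A1 (0.98) lie farthest above 0, SPOCK2 (-0.62) lies below it, and the bands of THBS1 and FN1 are the widest among the members.

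Among 16 receptors and partners of matricellular proteins, 10 passed the filter and all 10 lay above 0 (53.7% of all genes tested), with a median log2 fold change of 0.27, which was 0.10 without RC5 and 0.51 without RC6. None passed limma, edgeR or DESeq2, and 3 had an unadjusted p under 0.05, all higher in Wagyu (8.64% of all genes). CALR, calreticulin, which at the cell surface works with LRP1 as a thrombospondin-1 receptor, was at 66.1 ± 5.36 FPKM in Wagyu and 43.2 ± 6.46 FPKM in Chinese Red Steppes (n = 3 each, SD; difference in log2 0.61, standard error 0.15, limma adjusted p = 0.202; 0.0962 to 0.532 over the alternatives). LRP1 itself was at 7.07 ± 0.86 FPKM and 4.87 ± 0.61 FPKM (n = 3 each, SD; difference in log2 0.46, standard error 0.16, limma adjusted p = 0.293; 0.217 to 0.636 over the alternatives). In both genes, which were named for a small p, the breeds did not overlap. They were the 2 of the 10 past the filter without overlap, against 11.4% of all genes tested with Wagyu higher. ITGB5, an integrin chain of vitronectin and periostin receptors, was at 28.6 ± 8.63 FPKM and 17.8 ± 2.88 FPKM, and STAB1, a scavenger receptor that takes up SPARC in human macrophages, at 3.69 ± 0.75 FPKM and 3.08 ± 0.62 FPKM (SD, n = 3 each), both with overlap. CD36, the thrombospondin-1 receptor of vessels and fat uptake, was named after its values were seen. It was at 39.7 FPKM in WC616, 41.4 FPKM in WC719 and 40.5 FPKM in WC921, against 20.0, 31.5 and 91.6 FPKM in RC4, RC5 and RC6, so RC6 alone of the Chinese Red Steppes animals lay above the Wagyu animals.

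Of 24 relatives, from the SPARC, thrombospondin, tenascin, CCN and fibulin families and with SPP1, VTN, TGFBI and ECM1 as other matrix proteins, 23 were in the table and 14 passed the filter, with 9 above 0 and 5 below and a median log2 fold change of 0.12, or 0.04 without RC6. None passed limma, edgeR or DESeq2, and 3 had an unadjusted p under 0.05, all higher in Wagyu (8.64% of all genes). FBLN2, a fibulin of basement membranes and elastic fibres, was at 21.9 ± 0.53 FPKM in Wagyu and 13.7 ± 2.77 FPKM in Chinese Red Steppes (n = 3 each, SD; difference in log2 0.66, standard error 0.17, limma adjusted p = 0.202; 0.101 to 0.531 over the alternatives). FBLN5, which is needed for elastic fibre assembly, was at 5.96 ± 0.77 FPKM and 4.24 ± 0.57 FPKM (SD, n = 3 each). FBLN2 and FBLN5 were the 2 of the 14 without overlap, against 11.4% of all genes tested with Wagyu higher. FSTL1, a secreted relative of SPARC, was at 12.1 to 14.1 FPKM in Wagyu and 6.80 to 12.7 FPKM in Chinese Red Steppes, with RC4 within the Wagyu range. SPOCK2, a SPARC-family proteoglycan, was the named relative with the opposite sign, at 1.99 ± 0.64 FPKM in Wagyu and 3.72 ± 1.71 FPKM in Chinese Red Steppes (n = 3 each, SD; difference in log2 -0.62, standard error 0.29, limma adjusted p = 0.372; 0.179 to 0.674 over the alternatives). The THBS3 and COMP genes, which complete the thrombospondin family, did not pass the filter.

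Of the 15 genes of the TGF-beta pathway, which drives transcription of several matrix genes, 12 passed the filter, with 11 above 0 (53.7% of all genes) and a median log2 fold change of 0.29 (0.18 to 0.42 with 1 library left out). None passed limma or edgeR, 2 had an unadjusted p under 0.05, both higher in Wagyu (8.64% of all genes higher and 5.87% lower), and DESeq2 called 1 of 14 higher, SMAD7 (1.26% of all genes). SMAD7, an inhibitor that TGF-beta signalling itself induces, had levels of 5.80, 17.8 and 11.7 FPKM in WC616, WC719 and WC921, against 3.71, 4.04 and 5.41 FPKM in RC4, RC5 and RC6. The breeds did not overlap, but WC616 lay close to RC6 (log2 fold change 1.14, standard error 0.35, limma adjusted p = 0.265; 0.0185 to 0.566 over the alternatives). SMAD3, which carries the TGF-beta signal to the nucleus, was at 6.92 ± 0.44 FPKM in Wagyu and 4.67 ± 0.99 FPKM in Chinese Red Steppes, again without overlap, and the ligand TGFB1 at 6.79 ± 1.25 FPKM and 4.60 ± 1.42 FPKM (SD, n = 3 each), with overlap. SMAD2 was at 9.65 ± 1.91 FPKM and 7.11 ± 0.95 FPKM (SD, n = 3 each). SMAD7 and SMAD3 were the 2 of the 12 without overlap, against 11.4% of all genes tested with Wagyu higher.

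Of 14 proteases and inhibitors that act on these proteins, 12 passed the filter, with 10 above 0 (53.7% of all genes) and a median log2 fold change of 0.12 (0.08 to 0.25 with 1 library left out). None passed limma, edgeR or DESeq2, and 2 had an unadjusted p under 0.05, both higher in Wagyu (8.64% of all genes higher and 5.87% lower). MMP2, a gelatinase that also cuts SPARC, was at 17.5 ± 3.84 FPKM in Wagyu and 10.9 ± 2.56 FPKM in Chinese Red Steppes (n = 3 each, SD; difference in log2 0.64, standard error 0.22, limma adjusted p = 0.293; 0.216 to 0.630 over the alternatives). ADAMTS2, which trims procollagen, was at 2.67 ± 0.79 FPKM and 1.39 ± 0.77 FPKM, and PLAU, the urokinase, at 4.51 ± 0.65 FPKM and 3.35 ± 1.50 FPKM (SD, n = 3 each). TIMP2, an inhibitor of MMP2, was at 36.7 ± 4.41 FPKM and 33.8 ± 5.11 FPKM (SD, n = 3 each). In MMP2, ADAMTS2, PLAU and TIMP2 the breeds overlapped, as in all 12 genes past the filter.

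**Figure D3:**
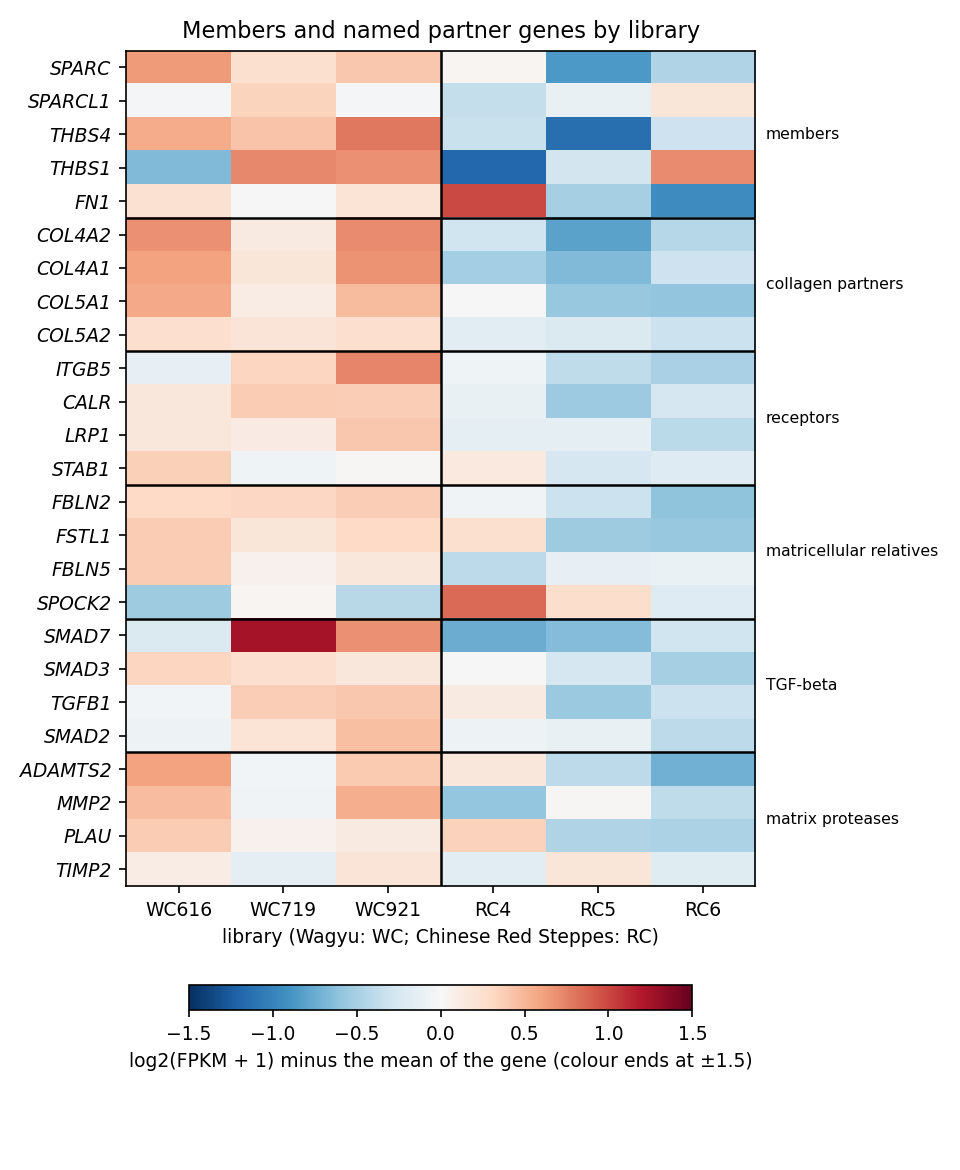
Colour shows log2(FPKM + 1) minus the mean of the gene over the 6 libraries, for the 5 members past the filter and 20 named partner genes (rows) in the Wagyu libraries (3 left columns) and the Chinese Red Steppes libraries (3 right columns). SPARC, THBS4, COL4A1 and COL4A2 are high in the Wagyu libraries and lowest in RC5, COL5A1 is high in the Wagyu libraries and low in RC5 and RC6, THBS1 is low in WC616, RC4 and RC5 and FN1 is high in RC4.

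Markers of the cell types that could supply this RNA were read beside the members. The 6 fibroblast and fibro-adipogenic markers, led by DCN, summed to 56.2 to 74.6 FPKM in Wagyu and 39.2 to 64.0 FPKM in Chinese Red Steppes. The 6 endothelial markers summed to 115 to 145 FPKM in Wagyu and 73.9 to 125 FPKM in Chinese Red Steppes, and the 6 smooth muscle and pericyte markers to 213 to 387 FPKM and 137 to 360 FPKM. In each of these 3 lists 5 of 6 markers had a log2 fold change above 0, against 53.7% of all genes tested. None passed limma, none was at 0 in all libraries, and the sums of the breeds overlapped. The breeds did not overlap in 2 of the fibroblast markers, DPT (log2 fold change 0.82) and LUM (0.51). For LUM the gap was narrow, at 4.00 FPKM in WC616 against 3.97 FPKM in RC5. Overlap was present in every endothelial marker and absent in 1 of the smooth muscle and pericyte markers, PDGFRB. DPT, LUM and PDGFRB were higher in Wagyu and named after their values were seen. Of all genes tested, 11.4% had Wagyu higher without overlap and 9.16% had Wagyu lower. In that last list CNN1 and RGS5 overlapped, with log2 fold changes of -0.12 and 0.12. PDGFRB, the pericyte receptor, was at 18.7 FPKM in WC616, 12.6 FPKM in WC719 and 13.8 FPKM in WC921, against 9.01, 6.07 and 9.12 FPKM in RC4, RC5 and RC6. The 6 fat cell markers, dominated by PLIN4, summed to 44.1 to 49.4 FPKM in Wagyu and 54.6 to 61.9 FPKM in Chinese Red Steppes, with every Wagyu sum lower. PLIN4 by itself overlapped, at 35.1 to 45.4 FPKM in Wagyu and 43.4 to 59.4 FPKM in Chinese Red Steppes. Marbling was scored higher in these Wagyu animals by the paper, and the marker sum was not tested as a measure of fat. The list did not move as one, since CIDEC, a lipid droplet protein, was higher in every Wagyu library (1.12 to 1.69 FPKM) than in Chinese Red Steppes (0.05 to 1.07 FPKM), PLIN (perilipin) had a log2 fold change of 0.18, and PLIN, ADIPOQ and FABP4 overlapped, with highest values of 1.78, 1.59 and 10.1 FPKM. The 4 tendon markers summed to 7.53 to 9.72 FPKM in Wagyu and 6.44 to 8.90 FPKM in Chinese Red Steppes, and the 6 macrophage markers to 9.43 to 19.8 FPKM and 5.65 to 15.8 FPKM. The 4 satellite cell markers summed to 12.9 to 21.2 FPKM in Wagyu and 10.2 to 15.1 FPKM in Chinese Red Steppes, and the 6 muscle fibre markers to 51484 to 58886 FPKM and 61378 to 70120 FPKM. This sum was lower in every Wagyu library and was carried by ACTA1, while 3 of the 6 markers, MYH2, MYH7 and TTN, had log2 fold changes above 0 (0.08, 0.23 and 0.04). The 6 fast fibre markers summed to 49687 to 61126 FPKM in Wagyu and 32988 to 73301 FPKM in Chinese Red Steppes, with the lowest sum in RC6. The 6 platelet and blood markers summed to 1.79 to 2.14 FPKM in Wagyu and 3.06 to 42.3 FPKM in Chinese Red Steppes, and their log2 ratio of means was -3.03, or -0.89 without RC5. The part of any of these cell types in the differences of SPARC and THBS4 was not tested.

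SPARC was then set against other transcripts of the same library, with ratios chosen after the values were seen. Relative to the sum of COL4A1 and COL4A2, SPARC was at 1.16, 1.22 and 0.94 in WC616, WC719 and WC921, against 1.59, 1.05 and 1.09 in RC4, RC5 and RC6. SPARC did not separate the breeds once divided by collagen IV, and RC4 had the highest ratio. COL4A1 and COL4A2 themselves separated the breeds, with log2 fold changes (0.98 and 1.02) near that of SPARC (0.86). The overlap of this ratio follows from these like differences and is not a separate result. Relative to the summed fibroblast markers SPARC was at 3.04 to 3.77 in Wagyu and 1.46 to 3.17 in Chinese Red Steppes. Relative to the endothelial markers it was at 1.39 to 2.34 and 1.27 to 1.40. The breeds overlapped on both ratios, narrowly on that to endothelial markers. Relative to collagen I (COL1A1 and COL1A2) the ranges were wide, 2.88 to 4.35 in Wagyu and 1.35 to 5.44 in Chinese Red Steppes.

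The ratios of THBS4 were also chosen after the values were seen. THBS4 kept the breeds apart on the ratios to fibroblast, endothelial, tendon and slow fibre markers. It did not on those to collagen IV, collagen I or smooth muscle and pericyte markers. THBS4 was at 0.70 to 0.81 of the fibroblast marker sum in Wagyu and at 0.23 to 0.69 in Chinese Red Steppes, with only a narrow gap between WC616 and RC6. Relative to the endothelial marker sum it was at 0.31 to 0.45 and 0.20 to 0.28. The ratio to tendon markers was 5.54 to 6.63 in Wagyu and 1.66 to 4.17 in Chinese Red Steppes. The tendon sum rested on SCX and FMOD, since TNMD did not exceed 0.60 FPKM in any library and MKX 0.11 FPKM. The ratio to slow fibre markers was 0.0016 to 0.0027 in Wagyu and 0.0005 to 0.0014 in Chinese Red Steppes. For SPARC the breeds overlapped on the ratios to tendon and to slow fibre markers. Divided by collagen IV, THBS4 was at 0.22, 0.28 and 0.25 in WC616, WC719 and WC921, against 0.24, 0.17 and 0.23 in RC4, RC5 and RC6, so the breeds overlapped as they did for SPARC. Here too the divisor itself separated the breeds, so this overlap is not a separate result. The breeds overlapped also relative to collagen I, at 0.54 to 0.98 in Wagyu and 0.21 to 1.17 in Chinese Red Steppes. They overlapped relative to smooth muscle and pericyte markers as well, at 0.12 to 0.28 and 0.07 to 0.19.

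**Figure D4:**
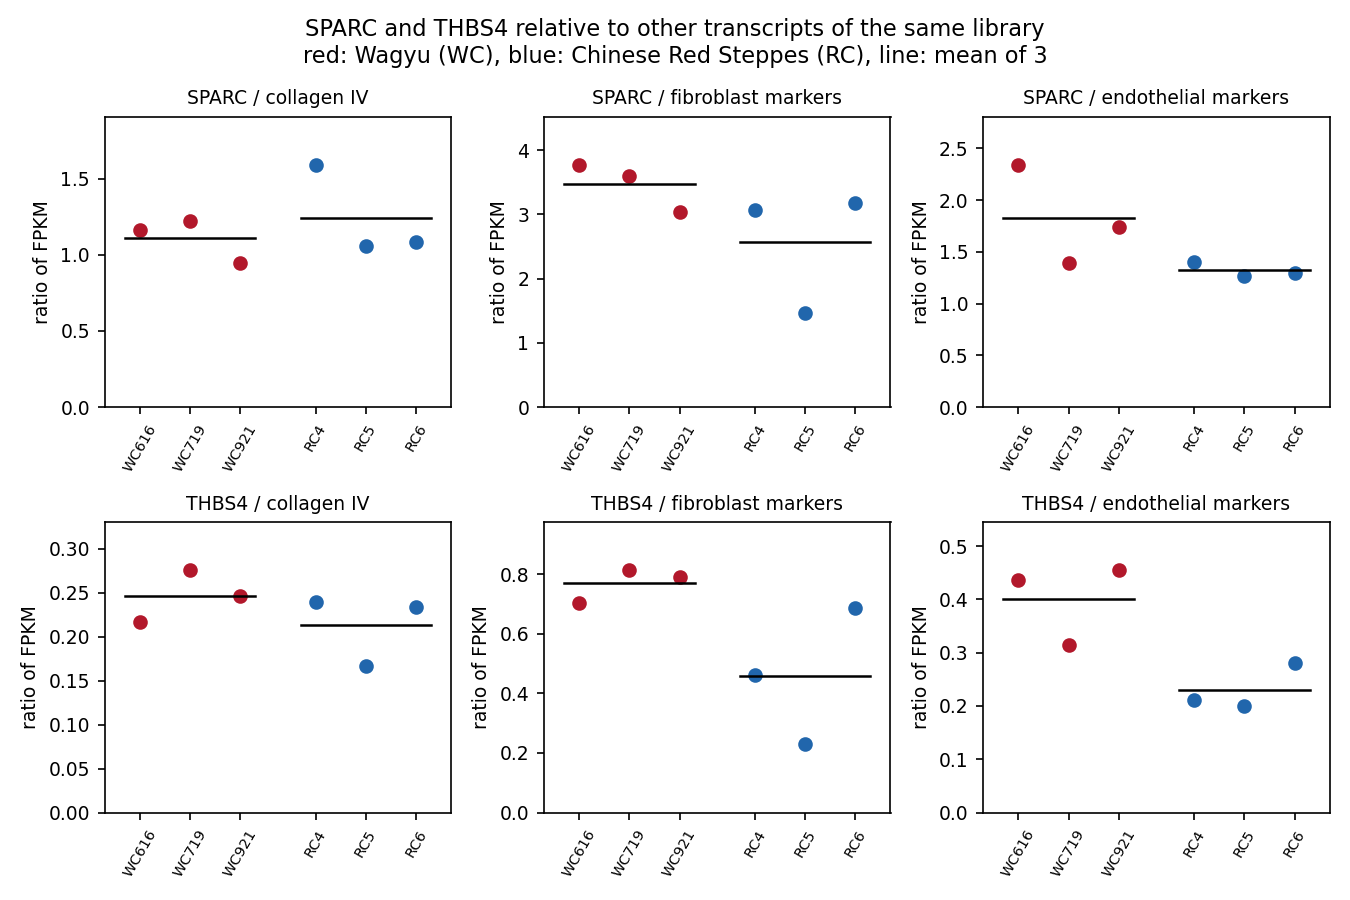
FPKM of SPARC (upper row) and THBS4 (lower row) divided by the sum of COL4A1 and COL4A2, by the summed fibroblast markers and by the summed endothelial markers of the same library (vertical axes start at 0), with the Wagyu libraries in red, the Chinese Red Steppes libraries in blue and the mean of 3 as a line. The breeds overlap on the 3 ratios of SPARC shown and on THBS4 to collagen IV. They are apart for THBS4 relative to endothelial markers and, narrowly, to fibroblast markers. Not drawn are the THBS4 ratios to collagen I and to smooth muscle and pericyte markers, which overlap. Those to tendon and slow fibre markers, also not drawn, do not overlap.

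The genes whose levels ran most nearly in parallel with the members were found from the root mean square difference of log2(FPKM + 1), each gene centred on its own mean over the 6 libraries, as a description. For SPARC the 5 nearest of 9989 genes were ALPK2 (0.11), SLC9A2 (0.12), FZD4 (0.12), LGALS1 (0.12) and PPP1R14B (0.14), against a median of 0.56 over all genes. LGALS1, the galectin that binds matrix sugars, was at 550 FPKM in WC616, 452 FPKM in WC719 and 483 FPKM in WC921, against 375, 250 and 264 FPKM in RC4, RC5 and RC6. Its separation of the breeds follows from the nearness to SPARC by which it was picked, and is not a separate result. COL5A1 stood at place 9 in this ordering (0.15), COL4A2 at 31 (0.19), THBS4 at 127 (0.27), COL4A1 at 134 (0.27) and COL5A2 at 376 (0.33). Farther from SPARC were FN1 at 3489 (0.51), SPARCL1 at 4388 (0.54), the fibrillar chains COL3A1 at 4529 (0.54) and COL1A1 at 7849 (0.68), and THBS1 at 9629 (0.93).

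The other members were treated in the same way after the values had been seen. The median difference over all genes was 0.69 for THBS4, 0.31 for SPARCL1, 0.77 for THBS1 and 0.66 for FN1. Distances of different members therefore cannot be compared directly. The genes nearest to THBS4 were RAI14 (0.14), KLHDC8B (0.14) and CD151 (0.16), a tetraspanin that associates with laminin-binding integrins, and COL4A2 stood at place 8 (0.20) and COL4A1 at 12 (0.23). The gene nearest to SPARCL1 was KDR, the endothelial VEGF receptor, with a difference of 0.03 and values of 3.91, 5.30 and 3.57 FPKM in WC616, WC719 and WC921, against 2.83, 3.46 and 4.57 FPKM in RC4, RC5 and RC6. Those nearest to THBS1 were IFRD1 (0.21), CDKN1A (0.26), the cell cycle inhibitor, and DNAJA1 (0.27), a co-chaperone, and TGFB3, the ligand, was at place 4 (0.28). CDKN1A was at 16.1 FPKM in WC616, 38.6 FPKM in WC719 and 49.0 FPKM in WC921, against 9.16, 13.2 and 39.0 FPKM in RC4, RC5 and RC6. That CDKN1A was low in the same 3 libraries as THBS1 follows from its choice by nearness. The nearest to FN1 was CTSC (0.21), a lysosomal protease, and HTRA1, a secreted protease that cuts fibronectin, was at place 5 (0.23) with its highest value, 90.3 FPKM, in RC4.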

How the data were processed

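Poly(A) libraries of longissimus dorsi from 3 Wagyu and 3 Chinese Red Steppes males were sequenced, 1 per animal, and assigned to breeds by their titles. The authors deposited FPKM of all genes (scaled to gene length and to the total of reads on genes), and raw read counts of 205 genes. By their title, these 205 genes passed the authors' own thresholds of fold change and false discovery rate between the breeds, and THBS4 is among them. The authors' fold changes, corrected p-values and breed means beside the counts were not used. TopHat and Bowtie are the aligners in the paper, but HISAT2, with UMD3.1, is listed in the processing notes of the submitters, and which made the values was not settled. The counting tool and strand setting are not given in the sources used here, which leaves overlapping genes uncertain. No coordinates are printed, because the reference held here is of another assembly.

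The totals of reads were worked out from the 205 genes with both units, and all 16770 genes above 0 gave whole reads (within 0.0001 of a read), equal to the deposited counts in 203 of 205. No library repeated another: the chi-square of these reads over its degrees of freedom was 26.6 to 179 for pairs of libraries, so sampling noise was exceeded. P-values set the breed difference against the spread between animals within a breed, which share a bull. In limma that spread is moderated across genes. The Poisson interval covers counting error only.

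Breeds were compared with limma 3.58.1 (R 4.3.3, eBayes with trend) on log2(FPKM + 1), run over 9990 genes that averaged 1 FPKM or more, two-sided, with Benjamini-Hochberg adjustment at 0.05. An exact permutation test of 3 against 3 cannot go below p = 0.1. edgeR 4.0.16 and DESeq2 1.42.0 on the recovered reads were alternatives, as were other pseudocounts (0.1 and 0.5), filters (none, or 5 FPKM), quantile, TMM and equal-sum scaling, and leaving out each library. The fits were tested on simulated counts. Summaries used Python 3.11.15 with pandas 2.3.3, numpy 2.4.6 and scipy 1.17.1.

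Members and lists were chosen with earlier results of these data known. Genes named are all members, up to 4 genes per list with the smallest limma p, the 5 genes nearest to SPARC, and markers at 0 or setting the range of their list, and genes outside this rule are said to be named after their values were seen. Listed symbols were matched to the gene name, then to the symbol column. Some genes of the lists are not reported here.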

Additional observations from a re-analysis of the deposited data

How the results depend on the processing

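SPARC, SPARCL1, THBS1, THBS4 and TNC kept a log2 fold change above 0 under every alternative that gave a value. FN1 ranged from -0.10 to 0.87, THBS2 from -0.10 to 0.23 and POSTN from -2.54 to 0.16. The edgeR, DESeq2 and other pseudocount values are not on the scale of log2(FPKM + 1). The POSTN value of -2.54 came from DESeq2 on reads, whereas limma gave -0.85 to 0.16 with 1 library left out. SPARC ranged from 0.64 to 1.09 and THBS4 from 0.92 to 1.33. Of the 100 fold changes of members under 15 alternatives, 97 moved by less than the SD between animals. Leaving out 1 of 3 animals cannot move a breed mean by as much as its SD. For those alternatives the count was therefore fixed in advance and says nothing on stability. The 3 that moved more were TNC by edgeR and by DESeq2 and POSTN by DESeq2. The median of the members was 0.87 without RC4 and lay between 0.28 and 0.87 when a library was left out. Members called numbered 1 by DESeq2 and 0 under the other 14 alternatives, and partner genes called 3 by DESeq2 and 0 under the others. Over all genes, limma called 1 higher and 1 lower. The higher count was 0 at a pseudocount of 0.1 or 0.5, without a filter, at 5 FPKM or after equal-sum scaling outside mitochondrial genes, 2 after quantile or TMM scaling, 6 by edgeR, 154 by DESeq2 and 0 with any 1 library left out. The lower count was 0 without a filter, at 5 FPKM or after equal-sum scaling, 2 by edgeR, 83 by DESeq2 and 0 to 3 with a library left out. The cause was not tested. No paired analysis was possible because each breed had its own animals, with nothing that pairs an animal of one breed with one of the other. With 3 animals a breed, and 2 to 160 reads behind POSTN and 4 to 39 behind THBS2, only wide differences of these genes could be seen.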
